A study of Mus musculus with 10 samples.

Results

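Germline genes are switched on in primordial germ cells and gonads and are silent in most body tissues. The 10 examined here were Dazl, Ddx4, Dppa3, Tex14, Mael, Tdrkh, Stk31, Sycp3, Hormad1 and Taf7l, read in mouse progenitors sorted for Flk1. They were taken by symbol from a table of 21868 genes, in which all 10 were found and all 10 passed the filter on low counts that left 16785 tested genes. The genes were chosen with earlier results known and selected on their counts in these same libraries (the gap between the WT libraries), so their levels and differences are given as a description, with no test of the group and no p-value for a member.

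The series sorted cells for Flk1, the receptor encoded by Kdr, from embryoid bodies, which are aggregates of differentiating embryonic stem (ES) cells grown without leukaemia inhibitory factor. RNA was sequenced from cells with an intact Ldb1 gene (Ldb1+/+, here WT) and from cells without it (Ldb1-/-, here KO), with 4 libraries per genotype. Ldb1 encodes an adaptor protein that bridges transcription factors bound to DNA, LIM-domain proteins among them. The labels name neither the number of ES lines or clones per genotype nor the day on which cells for RNA were sorted. Loss of Ldb1 and any other way in which the cells of the genotypes differ cannot be told apart. Libraries 1 and 2 of a genotype, and likewise 3 and 4, differed by little more than sampling noise and were counted as 1 sample. The first such pair of each genotype is called sample A and the second pair sample B (n = 2), with 22674679 to 26775787 reads per sample. Whether A and B are separate cultures is not stated, and any p-value then measures only the spread between these samples, which may be technical. Ldb1 transcripts were read in every library, at 104 to 116 CPM (read counts scaled to the size of each library by edgeR's TMM method) in WT and 79.1 to 96.6 CPM in KO, but without knowing which exons were deleted these reads do not check the labels.

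As background, many germline genes have promoters rich in CpG dinucleotides. In body tissues these are kept silent by DNA methylation and by repressor complexes that contain E2F6, MGA and MAX, of which E2F6 reads E2F-type sites and MGA with MAX reads the E-box. ES cells in culture are known to carry low transcript levels of several germline genes. Dazl, Ddx4, Mael and Tdrkh encode proteins that act on RNA, while Sycp3 and Hormad1 encode parts of the meiotic chromosome axis.

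The promoters are described first. Their sequence was not used to choose the genes, but the motifs were chosen after the counts were seen. RefSeq promoter windows (GRCm38.p6, 250 bases before to 50 after the first listed start) matched 9 of the 10 genes, all but Dppa3. These 9 windows held 15 to 38 CpG dinucleotides with a median of 24, against a median of 7 over 27025 promoters of the same length. The E-box, CACGTG, which reads the same on both strands, was present in 6 of the 9, namely Ddx4, Mael, Sycp3, Hormad1, Taf7l and Stk31. Over all promoters 7.24% held it, and over the 9514 with at least 15 CpG dinucleotides 11.5% did. An E2F-type match, GCGGGAA on either strand, was present in 4 of the 9 (Tex14, Ddx4, Sycp3 and Hormad1), against 4.66% of all promoters and 10.4% of those with at least 15 CpG dinucleotides. Dazl and Tdrkh held neither. No E-box overlaps an E2F-type match in these promoters. The E-box and the E2F-type match were among 9 motifs searched. The other 7 included a CCAAT box in 5 of 9 promoters (37.9% of all, 36.2% of those with at least 15 CpG dinucleotides). They also included a GC box, GGGCGG, in 6 of 9 (35.9% of all, 76.7% of those with at least 15 CpG dinucleotides). The E2F6 core, TTCGCGC, a different sequence from the E2F-type match, was in 0 of 9 promoters (1.59% of all). TCGCGA (2.58%) and the CRE, TGACGTCA (1.88%), were likewise in 0. GGCGCC was in 3 (12% of all, 28.8% of those with at least 15 CpG dinucleotides). TATAAA was in 2 (14.2% of all, 4.89% of those with at least 15 CpG dinucleotides). Each was searched on both strands. In further germline lists the E-box was in 3 of 21 promoters of meiosis genes, 6 of 14 of piRNA genes, 1 of 13 of specification genes and 3 of 16 of other germline-restricted genes, and the E2F-type match in 5, 1, 0 and 3 of them. A match is a description of letters and does not show that a factor binds. The 150 bases upstream of the start are printed for Hormad1 and Sycp3, which carry both motifs, for Taf7l with an E-box alone, and for Dazl, the gene with the widest range of levels and neither motif. The start used is the first listed, and for Ddx4, Tex14, Stk31 and Taf7l it lies inside the gene span given further on. Capitals mark the E-box (CACGTG) and the E2F-type match (GCGGGAA).
Hormad1, chr3:95559527-95559676, plus strand: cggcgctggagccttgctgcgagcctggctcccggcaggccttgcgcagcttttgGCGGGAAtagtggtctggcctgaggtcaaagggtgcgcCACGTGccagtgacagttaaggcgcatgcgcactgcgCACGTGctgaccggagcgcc
Sycp3, chr10:88459437-88459586, plus strand: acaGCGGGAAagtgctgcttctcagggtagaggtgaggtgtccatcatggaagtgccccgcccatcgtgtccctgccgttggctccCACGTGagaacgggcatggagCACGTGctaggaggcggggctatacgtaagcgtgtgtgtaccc
Taf7l, chrX:134476491-134476640, minus strand: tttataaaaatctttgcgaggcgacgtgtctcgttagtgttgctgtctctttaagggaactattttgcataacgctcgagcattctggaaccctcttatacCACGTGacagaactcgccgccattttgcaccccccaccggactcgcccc
Dazl, chr17:50293621-50293770, minus strand: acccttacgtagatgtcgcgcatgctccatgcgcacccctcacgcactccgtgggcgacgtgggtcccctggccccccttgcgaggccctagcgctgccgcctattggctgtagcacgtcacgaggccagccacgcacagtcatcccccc

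Hormad1 and Sycp3 each carried 2 E-boxes and 1 E2F-type match. In Hormad1 the E-boxes began 57 and 20 bases upstream of the start and in Sycp3 64 and 43 bases upstream. The single E-box of Ddx4 began 29 bases upstream, that of Taf7l 49 and that of Stk31 55, while the Mael E-box lay farther out, 223 bases upstream. The E2F-type matches began 95 to 147 bases upstream, with Hormad1 nearest and Sycp3 farthest. Of the genes without either motif, Dazl was higher in WT A than in WT B and Tdrkh was higher in WT B. A link between motif and RNA level was not tested.

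**Figure D1:**
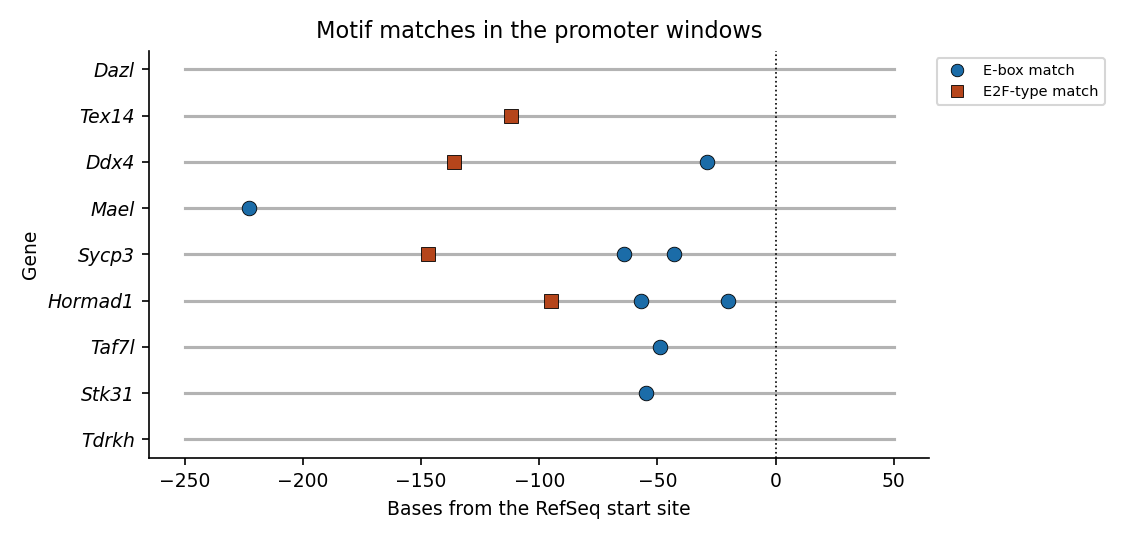
Positions of E-box matches (circles) and E2F-type matches (squares) in the promoter windows of 9 germline genes, in bases from the RefSeq start site (dotted line), with 1 grey line per gene from 250 bases upstream to 50 downstream. Every E-box but that of Mael begins within 64 bases upstream of the start, and Dazl and Tdrkh hold no match.

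In the RNA, 9 of the 10 genes had 1 order of samples in common: highest in WT A, lowest in WT B, and both KO samples in between. That order was seen in 9.0% of all genes tested. In bulk RNA, fewer cells that express a gene and less RNA per cell cannot be told apart. Tdrkh was the exception, with its highest level in WT B.

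Dazl and Ddx4 encode RNA-binding proteins of the germ cell cytoplasm. Dazl (ENSMUSG00000010592, GRCm38.p6 chr17:50279393-50293620) encodes an RNA-binding regulator of translation needed for germ cell development. Its levels in WT libraries 1 to 4 were 62.6, 62.2, 4.12 and 3.53 CPM, and in KO libraries 1 to 4 they were 5.91, 5.15, 5.93 and 5.91 CPM. Only the pair of libraries that make up WT A stood high, and the other 6 lay within a narrow band. WT A exceeded WT B 16.3-fold (1457 against 101 reads, 95% exact binomial interval 13.3 to 20.2), and such intervals cover counting error only. Ddx4 (chr13:112598333-112652633) encodes the RNA helicase VASA, a classical germ cell marker. It stood at 21.7 CPM in WT A, 4.07 in WT B, 10.8 in KO A and 18.8 in KO B. For Ddx4 the KO B sample came near WT A, which exceeded it 1.15-fold (interval 1.01 to 1.31).

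Dppa3 and Tex14 act at early and late stages of the germ line. Dppa3 (chr6:122626424-122630271), also called Stella, encodes a protein of primordial germ cells and the egg that protects maternal DNA methylation after fertilisation. Its levels were 44.0 CPM in WT A, 6.87 in WT B, 11.8 in KO A and 14.8 in KO B, and WT A exceeded WT B 6.41-fold (interval 5.47 to 7.54). The mouse genome holds retrocopies of Dppa3 that may share its reads, so its value is uncertain. Tex14 (chr11:87405013-87555823) encodes a protein of the bridges that join dividing germ cells, and stood at 46.8 CPM in WT A, 4.38 in WT B, 10.5 in KO A and 13.0 in KO B. The WT A level was 10.7-fold that of WT B (interval 8.83 to 13.1). Tex14 lies on chromosome 11, whose genes had a median log2 difference of -0.47 between KO and WT.

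The genes of the piRNA pathway and its cytoplasmic granules, which silence transposons in germ cells, did not all share the pattern. Mael (chr1:166201385-166238744) encodes Maelstrom, a piRNA pathway protein, and stood at 18.2 CPM in WT A, 1.85 in WT B, 3.93 in KO A and 7.41 in KO B. Stk31 (chr6:49395506-49469506), which encodes a kinase-like protein with a Tudor domain, stood at 7.04, 1.36, 2.07 and 3.12 CPM in the same order. Both had WT A far above WT B, 9.83-fold for Mael (interval 7.30 to 13.5) and 5.18-fold for Stk31 (interval 3.6 to 7.66). Tdrkh (chr3:94413243-94434854) encodes a mitochondrial Tudor and KH domain protein that helps trim piRNAs. It was level by comparison, at 21.6 CPM in WT A, 27.5 in WT B, 20.2 in KO A and 20.7 in KO B. Its WT A level was 0.785 times that of WT B (interval 0.700 to 0.881), and both KO samples lay below both WT samples, an order seen in 22.4% of all genes.

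Among the meiotic genes, Sycp3 (chr10:88459587-88473236) encodes a core protein of the synaptonemal complex, the structure that holds paired chromosomes in meiosis. It stood at 47.2 CPM in WT A, 21.9 in WT B, 37.6 in KO A and 41.0 in KO B. This was the narrowest range of the 9 genes with the common order, with WT A 2.15-fold above WT B (interval 1.95 to 2.38). Hormad1 (chr3:95559677-95587863), which encodes an axis protein that monitors pairing and double-strand breaks, stood at 9.08 CPM in WT A, 0.754 in WT B, 2.50 in KO A and 3.16 in KO B. WT A exceeded WT B 12-fold (213 against 20 reads, interval 7.60 to 20.1). The last member, the X-linked gene Taf7l (chrX:134460116-134476505), encodes a germ cell relative of a TFIID subunit. Its reads were few, at 66 in WT A, 7 in WT B, 19 in KO A and 40 in KO B, or 2.82, 0.264, 0.820 and 1.56 CPM. The ratio of WT A to WT B was 10.7 with a wide interval of 4.90 to 27.6.

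**Figure D2:**
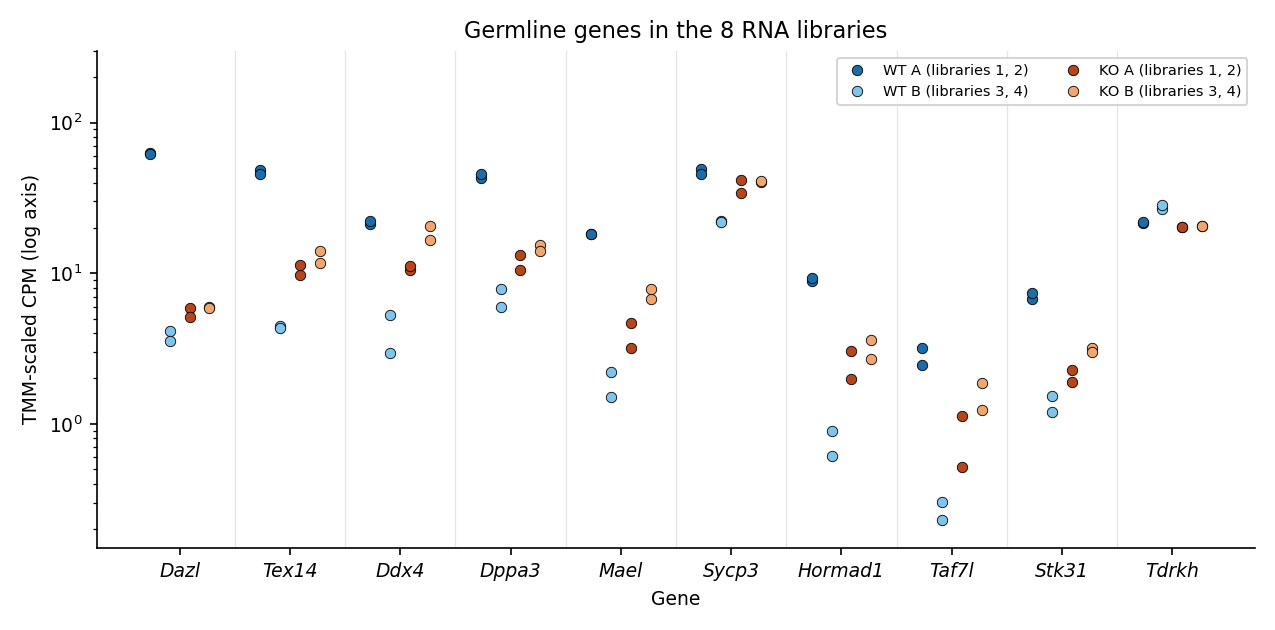
Normalised level of the 10 germline genes in each of the 8 RNA libraries, in CPM on a log axis, with 1 point per library coloured by sample. The pair of WT A points lies above all others for 9 genes, with KO B close to it for Ddx4 and Sycp3, and WT B is lowest for all but Tdrkh.

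The 2 libraries of a sample lay close together. Their levels differed by a median of 1.16-fold over the 10 genes and 4 samples. The widest gap was 2.19-fold, for Taf7l in KO A. Between WT A and WT B, 9 of the 10 genes differed by at least 2-fold with WT A higher, against 5.73% of all genes, and 0 were at least 2-fold higher in WT B, against 3.68% of all genes. Since the genes were chosen with these values known, nothing is read from that excess. The median log2 difference of WT B from WT A was -2.87 over the 10 genes and -0.0018 over all genes tested. This difference rests on 1 sample on each side and has no replicate check.

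The same comparison inside the KO genotype gave small differences. KO B stood above KO A for all 10 genes, as it did for 53.8% of all genes, with ratios from 1.02 for Tdrkh to 1.90 for Taf7l. None of the 10 reached 2-fold in either direction, against 1.39% of all genes at least 2-fold higher and 2.13% at least 2-fold lower in KO B. The counting intervals of the ratio lay above 1 for Tex14, Ddx4, Dppa3, Mael, Taf7l and Stk31 and held 1 for Dazl, Sycp3, Hormad1 and Tdrkh. The median log2 difference was 0.33 over the 10 genes and 0.03 over all genes.

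**Figure D3:**
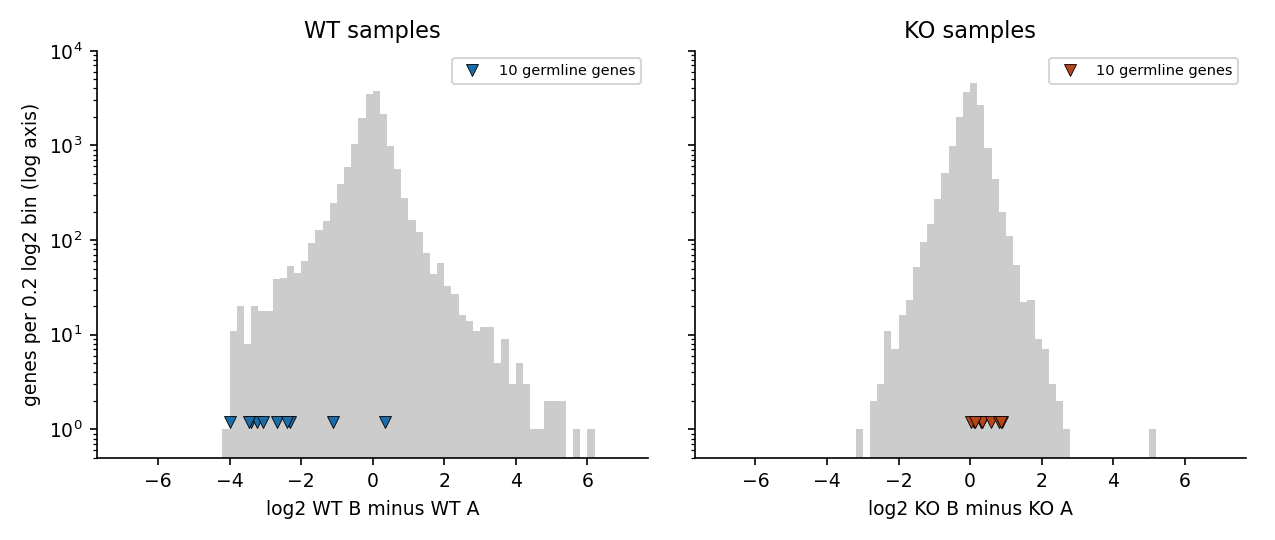
Distribution over 16785 tested genes (grey, log count axis) of the log2 difference of sample B from sample A in WT (left) and KO (right), with the 10 germline genes as triangles. In WT 9 of the 10 lie at -1.10 or below, and in KO all 10 lie between 0.03 and 0.90.

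Against both WT samples at once, no gene of the 10 was called in KO. Dazl had the largest difference, a log2 fold change of -2.52 (SE 1.32, n = 2 per genotype), and Tex14 (-1.12, SE 1.11), Dppa3 (-0.93, SE 0.90), Mael (-0.81, SE 1.11), Hormad1 (-0.79, SE 1.15), Stk31 (-0.69, SE 0.81), Taf7l (-0.35, SE 1.08) and Tdrkh (-0.27, SE 0.18) followed. Ddx4 (0.21, SE 0.85) and Sycp3 (0.19, SE 0.38) lay on the other side of 0. In edgeR's quasi-likelihood test over all genes, at an adjusted p of 0.05, 0 of the 10 were called lower and 0 higher, where 0.125% of all genes were called lower and 0.0596% higher. At an unadjusted p of 0.05 there were 0 of the 10, against 15.5% of all genes. DESeq2 also called 0 of the 10, against 3.53% of all genes lower and 3.37% higher, and limma-voom called 0, against 0.0179% lower. The gap between the WT samples, on which the genes were selected, enters the spread in each of these tests. It works against a call, so the 0 is a description and not a result about the 10. For all 10 the gap between the WT samples was wider than the difference between genotypes, and only for Tdrkh did the groups not overlap. None of the 10 had both KO samples above both WT samples, an order seen in 23.2% of all genes. The median log2 fold change was -0.74 over the 10 genes (-0.13 by limma-voom) and -0.0092 over all genes.

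The direction of the KO difference depended on which WT sample it was set against. KO levels averaged over both samples, on the log2 CPM scale, stood below WT A by a difference of -3.42 for Dazl, -2.0 for Tex14, -1.74 for Mael, -1.73 for Dppa3, -1.66 for Hormad1, -1.44 for Stk31, -1.25 for Taf7l, -0.60 for Ddx4, -0.26 for Sycp3 and -0.08 for Tdrkh. Set against WT B, the same KO levels stood above it by 0.58 for Dazl and by 0.84 to 1.82 for the other 8 genes with the common order, with Taf7l, Hormad1 and Ddx4 at 1.79 to 1.82. Tdrkh alone stayed below, at -0.43. These are 2 comparisons with the same KO samples and so are not independent.

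Leaving out WT A turned the edgeR difference of Dazl, Tex14, Dppa3, Mael, Hormad1, Stk31 and Taf7l from lower to higher in KO, and leaving out WT B turned that of Ddx4 and Sycp3 from higher to lower. These fits reuse the gap on which the genes were selected, so their counts are a description and not a test of the 10. Without WT A, 6 of the 10 were called higher (Tex14, Ddx4, Dppa3, Mael, Sycp3 and Hormad1) and 0 lower, where 4.46% of all genes were called higher and 4.47% lower. Without WT B, 6 were called lower (Dazl, Tex14, Dppa3, Mael, Stk31 and Hormad1) and 0 higher, where 5.75% of all genes were called lower and 3.98% higher. Each such fit has a single WT sample, which is assumed to vary as the KO pair does.

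**Figure D4:**
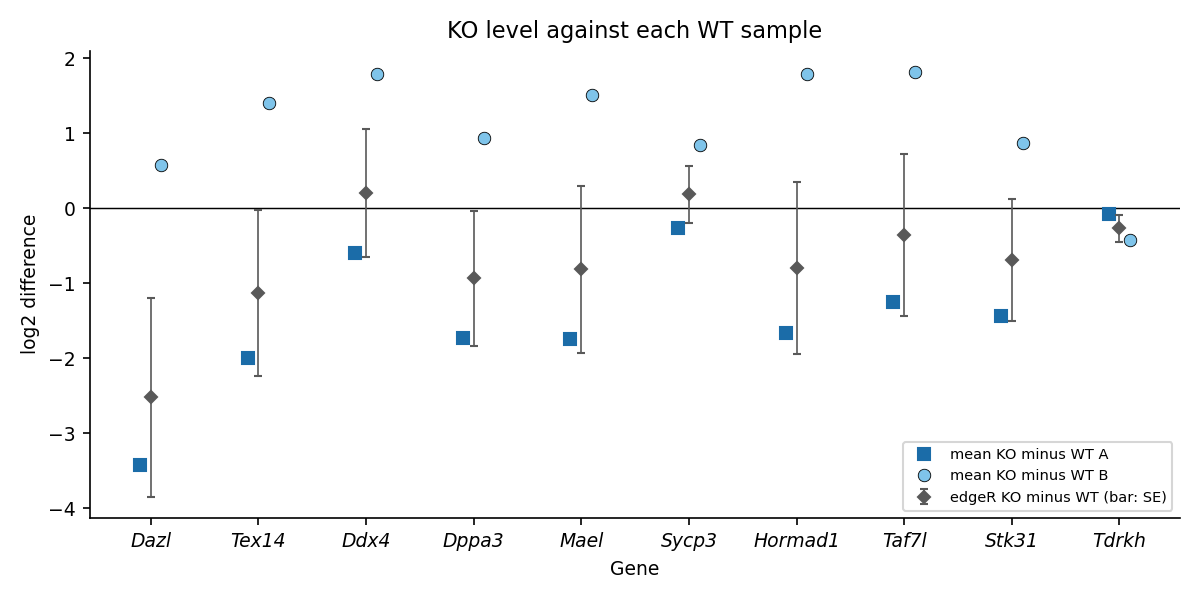
Log2 difference of the mean KO level from WT A (squares) and from WT B (circles) for each gene, with edgeR's log2 fold change over all 4 samples (diamonds, bars are SE). Squares lie below 0 for all 10 genes, from -3.42 to -0.08, and circles lie above 0 for all but Tdrkh.

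Per length of transcript, the order of the genes shifted between samples. With the deposited transcript lengths, Dppa3 was the most abundant member in WT A at 53.7 RPKM (CPM divided by transcript length in kilobases), followed by Sycp3 at 45.2 and Dazl at 21.2. In WT B the leaders were Sycp3 at 21.0 and Tdrkh at 10.4, and Dazl had dropped to 1.30. In both KO samples Sycp3 led, at 36.0 and 39.3, with Dppa3 second at 14.4 and 18.1 and Tdrkh next at 7.65 and 7.82. Taf7l was the least abundant member in every sample, from 0.137 in WT B to 1.46 in WT A.

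The wider germline programme was read from lists of further genes. The lists were chosen with earlier results of these data known, so their counts are a description. Genes named from them include those with the largest fall and the largest rise from WT A to WT B. Of 20 tested genes of meiosis, 13 were at least 2-fold lower in WT B than in WT A, against 5.73% of all genes. At least 2-fold higher were 0, against 3.68% of all genes, and the median log2 difference was -1.90. Syce1, a central element protein of the synaptonemal complex, stood at 5.76, 0.528, 1.21 and 1.76 CPM in WT A, WT B, KO A and KO B. The meiotic cohesin genes Smc1b (87.1, 9.69, 20.3 and 25.2 CPM) and Stag3 (126, 37.8, 60.5 and 63.4 CPM) showed the order common to 9 of the 10 genes. The axis gene Sycp2 was also highest in WT A (7.89, 1.28, 2.50 and 1.44 CPM). Trip13, whose product remodels HORMA proteins also outside meiosis (51.3, 55.7, 47.8 and 42.8 CPM), and the MutS homologue gene Msh5 (9.68, 10.9, 6.22 and 5.15 CPM) had no such gap between the WT samples.

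Among 16 tested genes of the piRNA pathway, 7 were at least 2-fold lower in WT B, against 5.73% of all genes. At least 2-fold higher were 0, against 3.68% of all genes, and the median log2 difference was -0.84. Fkbp6, a co-chaperone gene of piRNA loading, stood at 10.8, 0.641, 1.77 and 1.56 CPM in WT A, WT B, KO A and KO B. Gtsf1, a PIWI partner gene (5.50, 0.453, 0.604 and 0.429 CPM), the helicase gene Mov10l1 (26.5, 3.62, 8.51 and 9.44 CPM) and the Tudor gene Rnf17 (55.0, 9.20, 23.8 and 25.8 CPM) were highest in WT A as well. Tdrd7 (18, 19.4, 23.7 and 23.9 CPM), like Tdrkh a Tudor domain gene, and the helicase gene Ddx25 (15.8, 19.5, 12.2 and 10.2 CPM) were not. The piRNA list thus held both kinds of gene, as the 10 did.

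Germ cell specification genes were fewer and more mixed. Of 10 tested, 5 were at least 2-fold lower in WT B (5.73% of all genes) and 1 at least 2-fold higher (3.68%). The median was -1.09. The germ cell factor gene Sohlh2 stood at 50.7, 3.77, 8.03 and 5.89 CPM in WT A, WT B, KO A and KO B. Prdm14 (15.5, 3.66, 3.89 and 5.97 CPM) and Tfap2c (31.6, 7.51, 12.3 and 25.9 CPM), which act in primordial germ cell specification, were also highest in WT A. The chemokine receptor gene Cxcr4, which guides germ cells and many other cells, was highest in WT B (11.2, 35.4, 7.34 and 4.64 CPM). Kit (162, 98.9, 94.9 and 56.8 CPM), the stem cell factor receptor gene, and the interferon-induced gene Ifitm3 (74.3, 84.3, 84.7 and 104 CPM) were the most abundant.

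Of 18 other germline-restricted genes, 14 were at least 2-fold lower in WT B, against 5.73% of all genes. At least 2-fold higher were 0, against 3.68% of all genes, and the median was -2.15. The testis ADP/ATP carrier gene Slc25a31 stood at 5.89, 0.490, 1.21 and 1.29 CPM, the dipeptidase gene Dpep3 at 4.69, 0.377, 0.648 and 0.624 CPM and the X-linked gene 1700013H16Rik at 10.9, 0.943, 1.77 and 0.624 CPM in WT A, WT B, KO A and KO B. Dppa4 (83.7, 29.2, 31.6 and 42.5 CPM), a chromatin protein gene of early embryo and germ line, and the testis tubulin gene Tuba3a (78.3, 14.1, 15.4 and 15.3 CPM), which may share reads with the near-identical Tuba3b, were the most abundant, and Spdya stood level (1.45, 1.89, 2.16 and 1.79 CPM). In KO against WT, edgeR called 0 genes in each of these 4 lists. Each list had 1 gene with an unadjusted p under 0.05, lower in KO, against 1319 of all 16785 tested genes lower. DESeq2, which called 3.53% of all genes lower, called 1 lower in the specification list and 1 lower in the other germline-restricted list. The 2 genes called by DESeq2 were Cxcr4 and the X-linked Xlr3a (68.6, 24.1, 5.14 and 4.52 CPM), the latter named after its values were seen. Xlr3a may share reads with Xlr3b (66.1, 23.3, 4.88 and 4.45 CPM) and Xlr3c (58.0, 19.5, 4.32 and 3.39 CPM), which stood at similar levels. Median log2 fold changes for the 4 lists were -0.38, -0.44, -0.61 and -0.83, in the order meiosis, piRNA, specification and other germline-restricted.

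**Figure D5:**
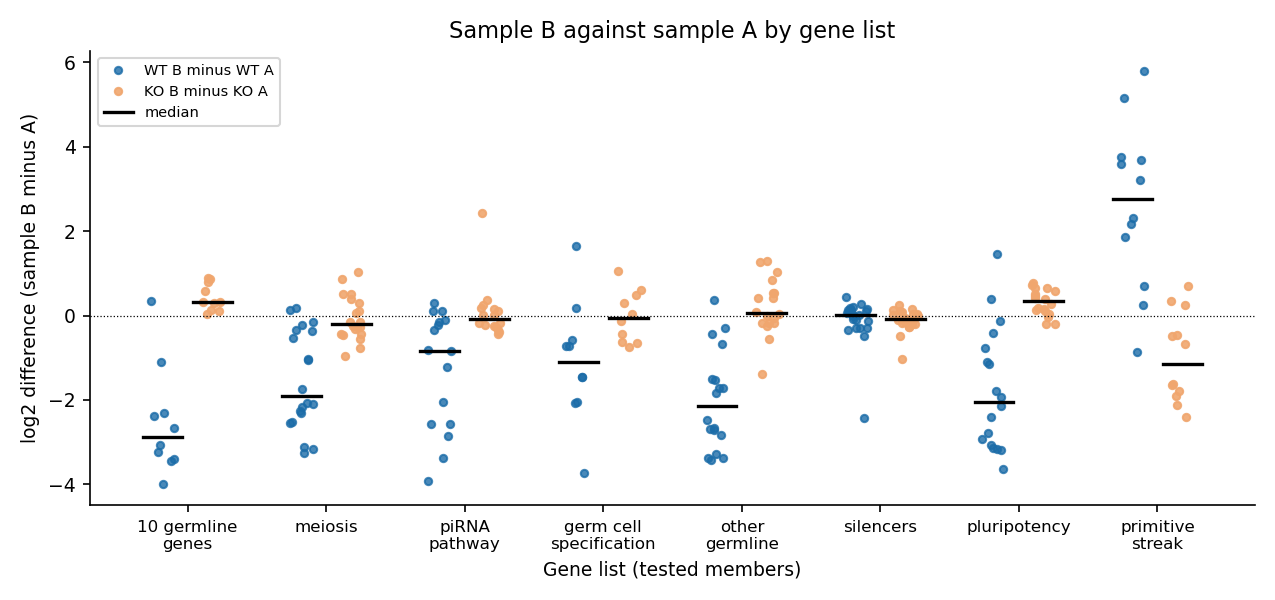
Log2 difference of sample B from sample A for each tested gene of 8 lists, in WT (blue) and KO (orange), with list medians as black bars. In WT the medians are -2.87 for the 10 germline genes, -2.04 for pluripotency genes, 2.76 for primitive streak genes and 0.01 for silencers, while in KO the 10 germline genes have a median of 0.33.

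Genes of the silencing machinery mostly lacked the gap between the WT samples, as did most genes tested. Of 22 tested, 1 was at least 2-fold lower in WT B than in WT A, against 5.73% of all genes. At least 2-fold higher were 0, against 3.68% of all genes, and the median log2 difference was 0.01. Trim28, a corepressor gene, stood at 809, 642, 708 and 731 CPM and the maintenance methyltransferase gene Dnmt1 at 273, 303, 303 and 251 CPM in WT A, WT B, KO A and KO B. E2f6 (26.6, 35.9, 32.6 and 32.8 CPM), Mga (258, 209, 254 and 181 CPM) and Max (44.0, 44.3, 41.2 and 44.9 CPM), named for their motifs above, differed by less than 1.5-fold between any samples. The gene 2-fold lower in WT B was Dnmt3l, a germ cell and ES cell cofactor of de novo methylation (33.2, 6.15, 16.2 and 14.5 CPM). It had the order common to 9 of the 10 genes. In KO against WT edgeR called 0 of the 22 (median 0.06). At an unadjusted p of 0.05 there were 2, higher in KO, against 1278 of all 16785 genes higher and 1319 lower. DESeq2 likewise called 2 higher, where it called 3.37% of all genes higher and 3.53% lower. The 2 called by DESeq2 were the de novo methyltransferase gene Dnmt3a (134, 155, 234 and 206 CPM) and the deacetylase gene Hdac1 (175, 164, 223 and 240 CPM). Dnmt3b, another de novo methyltransferase gene, differed inside KO (193, 218, 333 and 163 CPM). Of the DNA demethylase genes Tet1 (28.6, 10.5, 20.4 and 13.1 CPM), Tet2 (61.3, 41.8, 28.7 and 29.1 CPM) and Tet3, 1 was at least 2-fold lower in WT B, and edgeR called 0, 1 was lower at an unadjusted p under 0.05 and DESeq2 called that 1 (median -0.22). E2f6, Mga, Max, Dnmt3l, Dnmt3a, Dnmt3b and Hdac1 were named after the values were seen.

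Markers of other cell states also differed between the WT samples. All 18 pluripotency genes were read in every sample, with summed levels of 2773, 891, 1342 and 1631 CPM in WT A, WT B, KO A and KO B. Of these, 13 were at least 2-fold lower in WT B than in WT A, against 5.73% of all genes. At least 2-fold higher was 1, against 3.68% of all genes, and the median log2 difference was -2.04. Dppa5a stood at 630, 75.0, 209 and 356 CPM and Pou5f1, the Oct4 gene, at 281, 81.2, 257 and 253 CPM. Most of the 12 primitive streak genes went the opposite way, with summed levels of 63.2, 346, 108 and 74.3 CPM. Of these, 9 were at least 2-fold higher in WT B (3.68% of all genes) and 0 at least 2-fold lower (5.73%). Nodal, named after its values were seen, was lower in WT B than in WT A (16.5, 8.94, 23.6 and 38.2 CPM). Eomes stood at 9.64, 116, 27.8 and 8.93 CPM and Lhx1 at 19.7, 89.7, 20.3 and 5.38 CPM. No gene of either list was at 0 in any sample, and the part of these cell states in the germline levels was not tested.

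The markers of the sorted cell type were present, with all 10 read in every sample and summed levels of 1122, 1079, 641 and 261 CPM in WT A, WT B, KO A and KO B. Kdr, which encodes the sorted receptor, stood at 439, 604, 236 and 78.6 CPM and Pecam1 at 317, 131, 69.9 and 39.8 CPM. Cdh5 (151, 84.2, 181 and 62.7 CPM) and Tek (51.9, 39.3, 55.6 and 22.9 CPM), named after their values were seen, were highest in KO A. The other markers of this list were highest in a WT sample. Endoderm genes had summed levels of 110, 213, 81.9 and 40.9 CPM, with Sox7 at 59.8, 43.9, 33.7 and 17.7 CPM and Gata4 at 9.47, 89.8, 16 and 8.39 CPM. Neuroectoderm genes summed to 256, 258, 451 and 423 CPM, much of it from Nes (110, 109, 257 and 279 CPM). Hesx1, named after its values were seen, went the other way (3.41, 5.36, 0.259 and 0.507 CPM, log2 fold change -3.49, SE 0.48). Nes was the only gene of all 12 lists called by edgeR (log2 fold change 1.29, SE 0.13, adjusted p = 0.0493), while Otx2 stood at 0.05 (SE 0.20) and Zic2 at 0.57 (SE 0.19). No gene was called higher by limma-voom, or by edgeR with a filter of 1 CPM in 2 samples or a replicate block. Nes thus did not pass in those settings. Markers of the somatic cells of the gonad were mixed, with summed levels of 26.3, 28.9, 30.4 and 27.2 CPM. Of 10, 6 were under 1 CPM in every sample, among them the Sertoli cell gene Amh and the Leydig cell gene Cyp17a1, with 5 to 12 and 3 to 6 reads per sample, and Fshr and Hsd3b1 were at 0 in some samples. Star (9.51, 9.96, 11.7 and 9.67 CPM) and Wt1 (5.20, 4.98, 10.7 and 10.8 CPM), which are also expressed outside the gonad, were the most abundant. In KO against WT edgeR called 0 genes of the pluripotency, streak, Flk1+ cell, endoderm and gonadal lists, with 18, 12, 10, 9 and 5 tested. At an unadjusted p of 0.05 there were 3, 1, 6, 1 and 1 lower and 0, 1, 0, 0 and 2 higher. Over all 16785 tested genes, 1319 were lower and 1278 higher at that p. DESeq2 called 3, 0, 4, 0 and 1 lower and 0, 1, 0, 0 and 1 higher, against 3.53% of all genes lower and 3.37% higher. Of the 7 neuroectoderm genes 1 was lower and 2 were higher at an unadjusted p of 0.05, and DESeq2 called 1 lower and 1 higher. Median KO against WT differences were -0.48 for pluripotency, -1.21 for streak, -1.33 for Flk1+ cell, -1.01 for endoderm, 0.05 for neuroectoderm and 1.01 for gonadal genes. The gonadal median rests on 5 tested genes. With a sample left out it was 0.43 to 0.54, but the filter was rerun there and kept more genes in all. The 5 tested genes include Gata1, named after its values were seen and lower in KO (9.13, 10.8, 2.94 and 1.95 CPM). Gata1 is also a blood factor gene, so like Star and Wt1 it is not particular to the gonad.

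The genes outside the lists whose 4 sample levels lay nearest to the median pattern of the 10 were taken by Euclidean distance on centred log2 CPM. Dmrt1, a transcription factor gene of gonads and germ cells, was the nearest, at 36.6, 5.09, 10.9 and 14.8 CPM in WT A, WT B, KO A and KO B (distance 0.04). Nr5a2, a nuclear receptor gene active in ES cells and liver, followed at 33.0, 4.30, 9.20 and 12.9 CPM (0.06). Chchd10 (0.08), a mitochondrial protein gene, the X-linked tumour antigen gene Trap1a (0.21), Dlgap3 (0.24) and Cnpy1 (0.24) came next. The distances of the 10 genes themselves ran from 0.34 for Dppa3 to 2.29 for Tdrkh. The likeness covers 4 samples only.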

How the data were processed

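The RNA table deposited by the authors holds raw counts of reads for Ensembl genes in 8 libraries (4 WT, 4 KO), and gives each gene a transcript length, per the file headers. The submitters' processing notes name mm9 and DESeq. Aligner, counter, strand setting and annotation release: not given in the sources used here. Ldb1 peaks were not used, since their positions are in mm9 and the gene coordinates printed here are of RefSeq GRCm38.p6. Of 21868 genes, 20362 were paired with a symbol.

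Libraries were set against each other by chi-square, gene by gene where a pair held at least 20 reads (sampling noise alone gives a mean near 1). The mean for the 4 summed pairs was 1.06 to 1.10 and that for the other 8 pairs within a genotype 12.8 to 28.5. Library totals were 11258493 to 13483294 reads. After summing, filterByExpr and TMM scaling preceded edgeR 4.0.16 (robust quasi-likelihood, R 4.3.3) with Benjamini-Hochberg adjustment at 0.05. CPM uses the TMM scaling, computed over 4 samples or, for library values, over 8 libraries. Differences between samples use log2 CPM (prior count 2), and ratios of samples carry exact binomial (Clopper-Pearson) 95% intervals that cover counting error only. With 2 samples a side, 0.333 is the smallest p of an exact permutation test of 1 value.

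The 10 members, the 12 further lists (173 entries, 169 matched) and the rules were chosen with earlier results of these data known. From each further list the text names up to 4 genes past the test, the 2 most abundant that did not pass and, for the germline lists, the 3 with the largest fall and 2 with the largest rise from WT A to WT B at a mean of at least 1 CPM, and it adds the 6 nearest genes by pattern, predicted genes passed over. The 9 promoter motifs were chosen after the counts were seen, with the first listed start of each gene. The fitting step was tested on simulated counts. Alternatives were RLE and library size scaling, removal of each chromosome's median, DESeq2 1.42.0, limma-voom (limma 3.58.1), no filter or a stricter filter, a replicate block, 8 separate libraries and leaving out each library or sample.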

Additional observations from a re-analysis of the deposited data

How the results depend on the processing

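Of the settings tried, none but the loss of a WT sample changed the number of the 10 genes called, 0 by edgeR with all 4 samples. It became 6 on dropping either WT sample, and ran from 0 to 6 over all settings that left out a library or a sample. The median of the 10 in KO against WT, -0.74, ranged from -1.55 without WT sample B to 1.18 without WT sample A. With 1 sample or library left out, the log2 fold change ranged from -3.43 to 0.59 for Dazl, -1.99 to 1.42 for Tex14, -0.54 to 1.85 for Ddx4, -1.72 to 0.94 for Dppa3, -1.67 to 1.61 for Mael, -0.26 to 0.84 for Sycp3, -1.67 to 1.90 for Hormad1, -1.22 to 2.15 for Taf7l, -1.43 to 0.93 for Stk31 and -0.44 to -0.08 for Tdrkh. Ddx4 also turned to -0.25 without KO sample B and Taf7l to 0.04 without KO sample A. By limma-voom the median was -0.13, Hormad1 turned to 0.16 and Taf7l to 0.43. The cause was not tested beyond the sample left out. With chromosome 11's median removed Tex14 stood at -0.65. The medians of WT B against WT A (-2.93 to -2.78 over single libraries left out) and of KO B against KO A (0.30 to 0.57) kept their direction.

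Over all genes edgeR called 31. DESeq2 called 1159, limma-voom 3, edgeR without a filter 151, with 1 CPM in 2 samples 5, and with 8 libraries as replicates 3860. Leaving out a sample or library gave 0 to 1674. Both values of 0 came from dropping a KO sample, and edgeR then gave 1704 (A dropped) and 1106 (B dropped) genes at an unadjusted p of 0.05.

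The labels number the libraries alike in both genotypes but do not say that a number marks a shared culture or day. Over 16785 genes the difference of B from A in WT had a correlation of -0.08 with that in KO, so the numbers were not taken to pair the samples. With a replicate block for A and B, 5 genes were called, 0 of them among the 10, whose median was -0.21, and Taf7l turned to 0.15.

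List medians ranged, with a sample left out, from -1.0 to 0.49 (meiosis), -0.87 to 0.25 (piRNA), -0.79 to 0.16 (specification), -1.63 to 0.37 (other germline-restricted), -0.76 to 0.10 (Tet), -1.16 to 1.22 (pluripotency), -2.02 to 0.78 (primitive streak), -1.66 to -0.97 (Flk1+ cell), -1.91 to -0.25 (endoderm), -0.063 to 0.15 (neuroectoderm) and 0.43 to 0.54 (gonad). The filter was rerun with each sample left out and kept 17200 to 17396 genes, against 16785 with all samples. Those medians may thus cover other genes of a list. Without a filter, where more genes entered, the gonad median was 0.14 and the specification median -0.29 (-0.61 with the filter). By library size scaling the silencer median was 0.028. Taf7l, with 7 reads in WT B, and Hormad1, with 20, are limited by depth.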
